A study of Homo sapiens with 12 samples.

Results

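The erlotinib response of 2 lung cancer lines, PC9 and H1650, was compared gene by gene as a difference of differences: the change from T0 to erlotinib in H1650 minus the same change in PC9, on the log2 scale. This value is called the drug-by-line term below. A term above 0 means that expression moved further up, or less far down, in H1650 than in PC9, and a term of 1 is a 2-fold difference in fold change. The comparison used 8 of the 12 libraries of the series: PC9 at T0 (DMSO, 0 h), PC9 after 36 h with 10 μM erlotinib, H1650 at T0 (DMSO, 0 h) and H1650 after 36 h with 10 μM erlotinib, with 2 replicates each. The other 4 libraries hold cells of both lines treated with 0.1 μM osimertinib, and enter the fit but not the term. T0 cells were collected when the drug was added. Vehicle-treated cells of 36 h were not analysed here, and in either line the drug and the added time in culture cannot be told apart. The same limit holds for the drug-by-line term, which also takes in any difference between the lines in the effect of the added time. Nothing in the labels says that the replicates came from separate cultures, so p-values measure the spread between these libraries. Of 60591 genes in the deposited read count table, 19108 passed the expression filter and were tested.

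PC9 and H1650 are established lung adenocarcinoma lines, and both carry the same activating deletion in the kinase domain of EGFR. Erlotinib is a reversible inhibitor of that kinase. Activated EGFR signals through RAS, RAF, MEK and ERK, which drive ETS and AP-1 transcription factors together with the feedback inhibitors that restrain the pathway (the Sprouty and SPRED proteins and the DUSP phosphatases), and through PI3K and AKT, which hold FOXO factors out of the nucleus. Other inputs to transcription in adherent cells include serum response factor (SRF), whose cofactors sense free actin and ERK activity and which binds the CArG box, and the coactivators YAP and TAZ, which act through TEAD factors. The comparison asks which expression changes under erlotinib differed between the lines.

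Between 17961765 and 26346187 reads were counted on genes in the 8 libraries, and mitochondrial genes took 4.36% to 6.87% of them. Levels are given as normalized CPM, the reads of a gene divided by the scaled library size and set to a common total. A gene without a read may still have had up to 3, equal to 0.116 to 0.155 normalized CPM, a limit for counting error only. The 6 epithelial lung cancer markers used as the identity check (EPCAM, KRT8, KRT18, KRT19, CDH1 and EGFR) summed to between 5631 and 9239 normalized CPM in every library. The 16 markers of other cell types (immune, endothelial, fibroblast, liver and muscle) summed to 6.90 to 9.96 normalized CPM in PC9 at T0, 11.4 to 12.1 in PC9 after erlotinib, 3.70 to 4.43 in H1650 at T0 and 4.28 to 4.84 in H1650 after erlotinib. MS4A1, DCN and LUM had 0 reads in all 8 libraries, and ITGAM, at up to 6.58 normalized CPM in PC9, was the highest of the 16. Since these are bulk libraries, fewer cells expressing a gene and less RNA per cell cannot be told apart. Gene positions and exon overlaps given below are those of GENCODE 29 on GRCh38.

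The lines differed in their change from T0 to erlotinib at 7802 genes (40.8% of those tested). These had a Benjamini-Hochberg adjusted p below 0.05 in the quasi-likelihood F-test of edgeR, which is what "called" means throughout. The term was above 0 for 4025 of them (21.1%) and below 0 for 3777 (19.8%). In PC9 itself, 6244 genes (32.7%) were higher after erlotinib and 5568 (29.1%) were lower. In H1650, 3438 (18%) were higher and 3528 (18.5%) were lower. The median size of the term was 0.60 over all tested genes and its median value was -0.03. The median log2 fold change was 0.07 in PC9 and 0.01 in H1650.

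Most of these terms came from genes that moved in PC9 and moved less, or not past the threshold, in H1650. Among the genes with a term above 0, 1760 were lower in PC9 and not called in H1650, and 1426 were lower in both lines. Among those with a term below 0, 1848 were higher in PC9 and not called in H1650, and 985 were higher in both. Of the 2580 genes called in both lines in the same direction and also called for the term, 2411 had the larger change in PC9 and 169 had the larger change in H1650. A gene not called in H1650 is not thereby shown to be unchanged there.

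A further 840 genes moved in opposite directions, being called in each line's own comparison and for the term. Of these, 376 (1.97% of the tested genes) were lower after erlotinib in PC9 and higher in H1650. The other 464 (2.43%) were higher in PC9 and lower in H1650. In the first class, the median log2 fold change was -0.77 in PC9 and 0.57 in H1650, and the 2 erlotinib libraries lay wholly outside the range of the 2 T0 libraries in both lines for 371 genes. In the second class, the medians were 0.82 and -0.53, and 462 genes were separated in this way in both lines. Genes entered a class by passing the threshold in each line, which favours such separation, so these 2 counts are not separate evidence. The change exceeded 2-fold in both lines at 63 and 66 genes. The change was larger in PC9 than in H1650 for 251 of the 376 genes and for 302 of the 464. Protein-coding genes made up 95.7% and 92.5% of the genes of the classes that matched the annotation, against 77.4% of all tested genes that matched it.

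**Figure D1:**
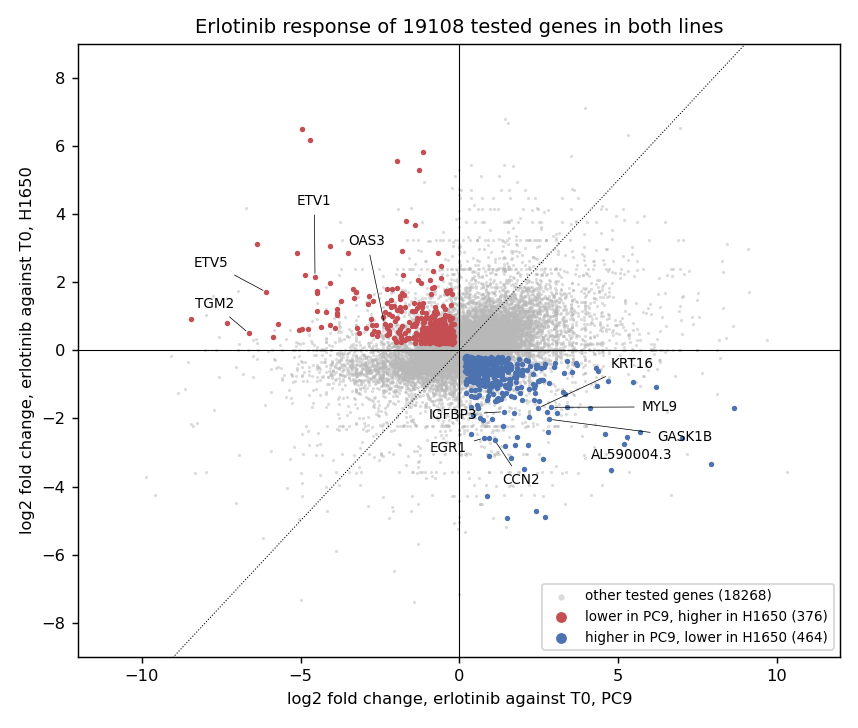
Each point is a tested gene, placed by its log2 fold change after erlotinib against T0 in PC9 (x axis) and in H1650 (y axis). The dotted diagonal marks equal changes, the 376 genes lower in PC9 and higher in H1650 are red, and the 464 genes higher in PC9 and lower in H1650 are blue.

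Genes that report ERK activity fell in PC9, and more of them rose than fell in H1650. Of 19 tested genes in a list of ERK output (feedback inhibitors, ETS factors and immediate targets), 17 fell in PC9 and 2 rose, whereas in H1650 10 rose and 6 fell. The term was called for all 19, above 0 for 17 and below 0 for 2, and its median was 3.49 (-3.22 in PC9 and 0.57 in H1650). In this list, 10 genes were lower in PC9 and higher in H1650, and 2 were higher in PC9 and lower in H1650.

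ETV5 (ENSG00000244405, chr3:186046308-186110318, minus strand), an ETS factor of the PEA3 subfamily, ranked highest, by the smaller of its 2 changes, among the genes lower in PC9 and higher in H1650 that had a mean of at least 5 normalized CPM in each line. It stood at 62.1 and 63.5 normalized CPM in PC9 at T0, 1.25 and 0.625 in PC9 after erlotinib, 5.22 and 6.56 in H1650 at T0, and 19.2 and 19.6 in H1650 after erlotinib. Both PC9 values after erlotinib were far below those at T0, while both H1650 values were above theirs, and the order of the lines was turned: PC9 had been the higher line at T0. The log2 fold change was -6.08 ± 0.18 (standard error) in PC9 and 1.71 ± 0.15 in H1650, which gave a term of 7.80 ± 0.24 (adjusted p = 1.46e-19). Its paralog ETV1 went from 4.29 and 5.73 to 0.269 and 0.156 normalized CPM in PC9 and from 10.9 and 13.5 to 53.1 and 56.3 in H1650, with a term of 6.71 ± 0.32 (adjusted p = 7.16e-16). The mean of ETV1 in PC9 was under that limit. ETV4, the third member, fell in PC9 by 5.03 on the log2 scale and was at 4.66 and 4.01 and then 5.26 and 4.56 normalized CPM in H1650, where it was not called (adjusted p = 0.446). An exon of ETV5 overlaps DGKG on the same strand and one of ETV4 overlaps DHX8 on the other, and the strand setting of the counting is not given in the sources used here.

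The Sprouty and SPRED genes, which encode inhibitors of RAS and RAF activation, followed the same pattern. SPRY1 was measured at 8.57 and 8.84 normalized CPM in PC9 at T0, 2.19 and 2.77 in PC9 after erlotinib, 4.29 and 3.59 in H1650 at T0, and 15.02 and 10.4 in H1650 after erlotinib. The H1650 libraries after erlotinib were the highest of the 8 and the PC9 libraries after erlotinib the lowest. Its term was 3.49 ± 0.29 (adjusted p = 9.05e-11). SPRY2 went from 23.3 and 22.1 to 3.27 and 3.67 normalized CPM in PC9 and from 11.7 and 12.3 to 16.5 and 19.1 in H1650 (term 3.27 ± 0.20). SPRY4 fell in PC9 from 22.1 and 25.8 to 0.0896 and 0.0390 normalized CPM, under the level of 3 reads, and rose in H1650 from 4.62 and 5.44 to 9.65 and 9.40. SPRED1, SPRED2 and SPRED3 fell in PC9 (log2 fold change -2.75, -4.07 and -1.41) and rose in H1650 (0.49, 0.75 and 0.71).

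Among the MAP kinase phosphatases, DUSP4 moved in opposite directions, going from 254 and 249 to 16.5 and 16.4 normalized CPM in PC9 and from 8.44 and 8.10 to 12.6 and 13.5 in H1650, and a term of 4.59 ± 0.15 (adjusted p = 2.73e-19). DUSP6, the phosphatase selective for ERK, fell in PC9 from 13.6 and 12.04 to 0.314 and 0.312 normalized CPM, and its increase in H1650, from 1.54 and 1.97 to 2.17 and 3.21, was not called (adjusted p = 0.0836). PHLDA1, a pleckstrin-homology-like protein that is induced by ERK, went from 137 and 139 to 15.8 and 14.02 in PC9 and from 52.8 and 51.9 to 84.6 and 80.8 in H1650.

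The list was not uniform in H1650. FOSL1, an AP-1 subunit, fell in both lines, from 299.9 and 296 to 15.2 and 13.1 normalized CPM in PC9 and from 25.4 and 25.8 to 3.92 and 3.68 in H1650. DUSP5 and IER3 also fell in both. CCND1, which encodes cyclin D1, fell in PC9 (log2 fold change -2.02 ± 0.07) and was at 210.4 and 216 normalized CPM at T0 and 199 and 207 after erlotinib in H1650 (log2 fold change -0.07 ± 0.07, not called). EPHA2, a receptor tyrosine kinase, fell by 4.02 in PC9 and by 0.36 in H1650 on the log2 scale. EPHA4, its relative, was with EGR1 one of the list genes that rose in PC9 and fell in H1650, and went from 15.7 and 16.5 to 45.4 and 51.3 normalized CPM in PC9 and from 4.20 and 6.29 to 3.41 and 2.61 in H1650.

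With osimertinib, measured against the same T0 libraries, the log2 fold change of ETV5 was -7.35 in PC9 and -0.29 in H1650 (adjusted p = 0.196 for the latter). For SPRY1 the osimertinib values were -1.01 and 1.28, and for SPRED2 they were -4.47 and 0.13. No difference between the drugs was tested here.

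**Figure D2:**
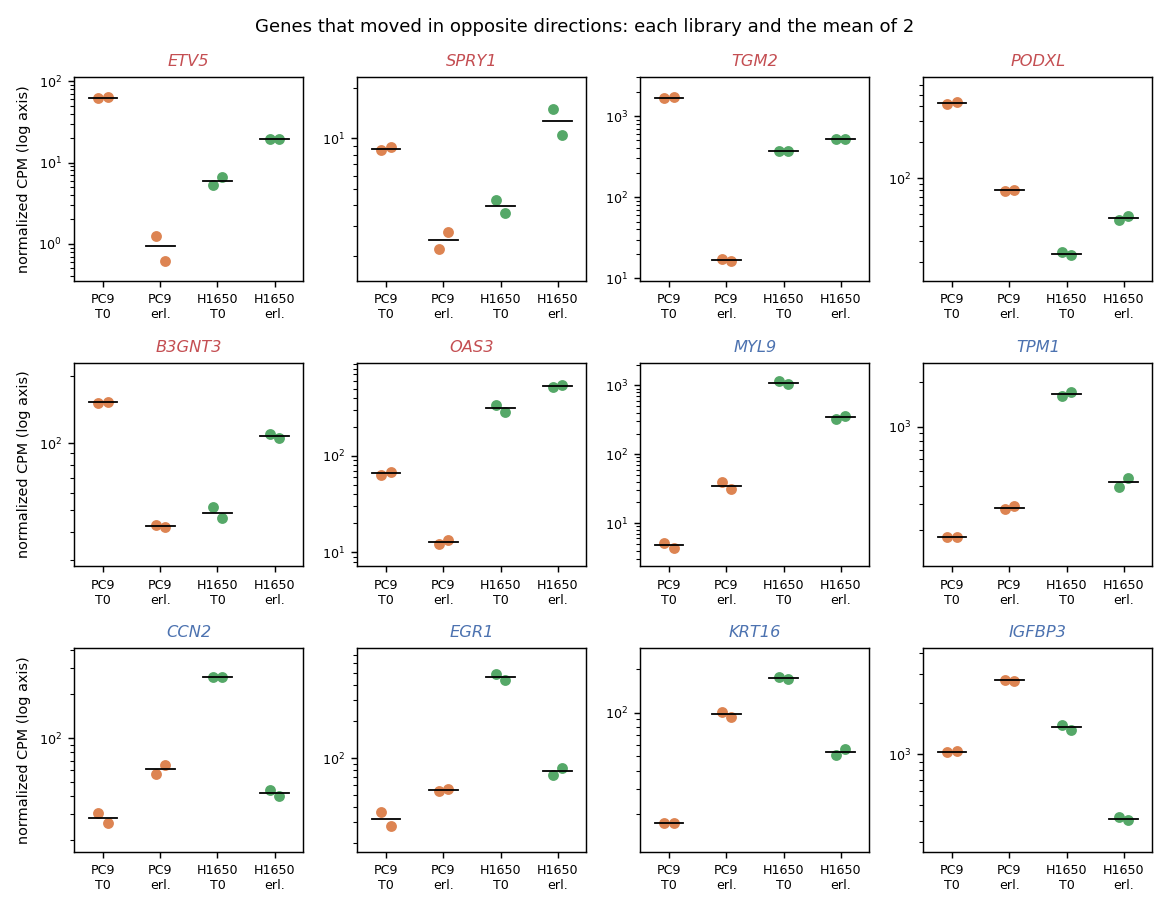
Normalized CPM (log axis) of 12 genes in the 8 libraries, with PC9 in orange and H1650 in green. Points are libraries and bars are the mean of 2 libraries, and in each panel the step from T0 to erlotinib (erl.) goes down in PC9 and up in H1650 (red titles) or up in PC9 and down in H1650 (blue titles).

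The opposite pattern, higher in PC9 and lower in H1650, was found in genes of the actin cytoskeleton. In a list of 19 tested actin and SRF target genes, 18 fell in H1650 and 1 rose, while in PC9 9 rose and 7 fell. The term was called below 0 for 18 and above 0 for 0, with a median of -1.42 (0.21 in PC9 and -1.32 in H1650). Of these genes, 8 were higher in PC9 and lower in H1650 (ACTG1, TPM1, TPM2, MYL9, FHL2, CALD1, LIMA1 and CNN1), against 2.43% of all tested genes. The lists and their members were chosen with earlier results of these data known, so such a comparison is a description and not a test. CNN1 rested on few reads, with 0 reads in both PC9 libraries at T0 and at most 0.849 normalized CPM in any library.

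MYL9 (ENSG00000101335, chr20:36541484-36551447, plus strand), the regulatory light chain of non-muscle and smooth muscle myosin, stood at 5.09 and 4.39 normalized CPM in PC9 at T0, 39.3 and 31.2 in PC9 after erlotinib, 1157 and 1039 in H1650 at T0, and 325 and 364 in H1650 after erlotinib. It was far higher in H1650 at both times, and the distance between the lines narrowed after erlotinib. The change was 2.89 ± 0.13 in PC9 and -1.67 ± 0.09 in H1650, with a term of -4.56 ± 0.16 (adjusted p = 1.15e-18). The tropomyosins TPM1 and TPM2, which coat actin filaments, went the same way. TPM1 went from 179 and 181 to 278 and 290.2 normalized CPM in PC9 and from 1620.4 and 1721 to 393 and 447 in H1650, and TPM2 went from 10.3 and 8.74 to 27.9 and 21.4 normalized CPM in PC9 and from 784 and 789 to 308 and 321 in H1650. Their terms were -2.65 ± 0.10 and -2.69 ± 0.14. An antisense gene, TPM1-AS, shares exonic sequence with TPM1.

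ACTG1, which encodes cytoplasmic γ-actin, rose in PC9 from 4025 and 4079.9 to 5434 and 5365 normalized CPM and fell in H1650 from 5258 and 4858 to 1327 and 1379.7 (term -2.32 ± 0.10, adjusted p = 2.71e-17). The annotation names 20 pseudogenes after it, which could take or add reads. ACTB, the β-actin gene, fell in both lines (-1.04 in PC9 and -1.67 in H1650). FHL2, a LIM-domain cofactor, went from 91.0 and 96.5 to 212 and 213 normalized CPM in PC9 and from 91.9 and 91.1 to 53.3 and 45.1 in H1650, and CALD1, the actin-binding caldesmon, went from 124 and 138 to 314 and 351 normalized CPM in PC9 and from 283 and 281 to 151 and 167 in H1650. All 4 libraries of each line were ordered in the same way for both genes: higher with erlotinib in PC9, lower with erlotinib in H1650. FLNA, MYH9, VCL, TPM4 and CNN2, which encode filamin A, non-muscle myosin IIA, vinculin, tropomyosin 4 and calponin 2, fell in both lines and fell further in H1650 (terms -1.37, -1.04, -0.71, -1.16 and -0.89). TAGLN was the exception: it rose in both lines (1.78 and 0.68).

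The promoters of ACTG1, FHL2, EGR1 and SRF are shown because all 4 genes were higher in PC9 and lower in H1650 and hold a CArG box, the element bound by SRF. The 250 bases before the transcription start are given 5′ to 3′ in the direction of the gene, from RefSeq on GRCh38.p14, in lower case with the CArG box in capitals.
ACTG1 (chr17:81512800-81513049, minus strand): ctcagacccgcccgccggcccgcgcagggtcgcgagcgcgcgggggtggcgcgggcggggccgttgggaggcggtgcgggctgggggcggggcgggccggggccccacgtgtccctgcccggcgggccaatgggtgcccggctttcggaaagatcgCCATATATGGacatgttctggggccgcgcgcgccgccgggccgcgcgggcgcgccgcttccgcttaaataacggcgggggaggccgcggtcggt
FHL2 (chr2:105438514-105438763, minus strand): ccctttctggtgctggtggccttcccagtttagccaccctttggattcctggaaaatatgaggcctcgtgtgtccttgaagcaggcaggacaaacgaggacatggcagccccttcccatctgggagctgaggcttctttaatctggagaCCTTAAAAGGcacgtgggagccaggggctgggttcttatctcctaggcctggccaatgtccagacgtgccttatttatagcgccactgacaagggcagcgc
EGR1 (chr5:138465229-138465478, plus strand): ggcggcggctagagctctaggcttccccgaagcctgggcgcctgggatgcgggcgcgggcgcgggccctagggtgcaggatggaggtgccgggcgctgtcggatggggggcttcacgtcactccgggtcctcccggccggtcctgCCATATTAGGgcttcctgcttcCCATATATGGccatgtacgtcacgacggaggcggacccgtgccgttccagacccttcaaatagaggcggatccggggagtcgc
SRF (chr6:43171019-43171268, plus strand): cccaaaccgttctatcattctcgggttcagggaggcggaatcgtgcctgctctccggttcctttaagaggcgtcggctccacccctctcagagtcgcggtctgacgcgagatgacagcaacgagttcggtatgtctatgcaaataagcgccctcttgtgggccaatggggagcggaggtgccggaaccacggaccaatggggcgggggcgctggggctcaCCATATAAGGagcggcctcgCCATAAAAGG
The box of ACTG1 lies 94 to 85 bases before the start, that of FHL2 101 to 92 bases, those of EGR1 at 105 to 96 and 83 to 74 bases, and those of SRF at 30 to 21 and 10 to 1 bases. A match on either strand was found in 312 of all 27305 promoters of the RefSeq table (1.14%) and in 126 of the 12201 tested genes with a promoter there (1.03%). Among genes higher in PC9 and lower in H1650 it was found in 11 of 363 (3.03%), among genes lower in PC9 and higher in H1650 in 2 of 280 (0.714%), and in the actin and SRF list in 5 of 16 (31.2%). The actin and SRF list was made up partly of known SRF targets, so its share follows from the choice of members and is not a result of these libraries. A match is a string of letters in this window, and nothing here measured binding.

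SRF itself was measured at 47.9 and 45.8 normalized CPM in PC9 at T0, 70.1 and 63.9 in PC9 after erlotinib, 95.1 and 81.1 in H1650 at T0, and 50.4 and 51.6 in H1650 after erlotinib. Its values after erlotinib were above T0 in PC9 and below T0 in H1650 (term -1.30 ± 0.13, adjusted p = 1.54e-09). EGR1, an immediate early zinc finger factor, went from 36.0 and 27.6 to 53.6 and 55.6 normalized CPM in PC9 and from 492 and 439 to 73.0 and 83.3 in H1650. H1650 at T0 was the highest group by a wide margin, and its fall (-2.57 ± 0.10) was larger than the rise in PC9 (0.78 ± 0.11). In a list of 13 tested AP-1 and early genes, 8 rose and 3 fell in PC9, whereas 1 rose and 10 fell in H1650, and the median term was -1.39. Of these, 7 genes were higher in PC9 and lower in H1650: FOS, FOSB, JUNB, EGR2, ATF3, KLF6 and SRF. The call of KLF6 held in 5 of 15 alternative settings. ATF3, a stress-induced factor, had the largest term of the list members with a mean of at least 5 normalized CPM in each line, going from 3.73 and 2.32 to 34.5 and 36.0 normalized CPM in PC9 and from 57.6 and 54.9 to 36.5 and 36.1 in H1650 and a term of -4.17 ± 0.17 (adjusted p = 2.64e-17). EGR2 reached at most 1.49 normalized CPM in any library. JUND rose in both lines and rose further in PC9 (term -1.48). MAFF fell in PC9 (-2.07) and was not called in H1650 (0.12).

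Most genes of a list of YAP, TEAD and their targets fell in H1650 after erlotinib. Of 21 tested list genes, 16 fell and 2 rose in H1650, while 7 fell and 8 rose in PC9. The term was below 0 for 14 and above 0 for 4, with a median of -0.69. CCN2, the matricellular protein also called connective tissue growth factor, read 30.4 and 26.1 normalized CPM in PC9 at T0, 56.8 and 65.3 in PC9 after erlotinib, 263 and 261 in H1650 at T0, and 44.3 and 39.9 in H1650 after erlotinib. H1650 was the higher line at T0 and the lower one after erlotinib. Its term was -3.75 ± 0.13 (adjusted p = 4.81e-19). CCN1, its relative, was not called in PC9 (0.14 ± 0.07, adjusted p = 0.0799) and fell in H1650 from 1099.8 and 1039 to 199 and 199 normalized CPM. AMOTL2, AJUBA, PTPN14, ARHGEF17, TEAD1 and TEAD2 were, like CCN2, higher in PC9 and lower in H1650. WWTR1, which encodes TAZ, went the other way, going from 113 and 126 to 82.6 and 91.3 normalized CPM in PC9 and from 73.3 and 73.2 to 93.1 and 91.2 in H1650. YAP1 was not called for the term (adjusted p = 0.293). ANKRD1 fell in both lines and fell further in PC9 (term 3.05 ± 0.37).

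The CCN2 promoter is shown as the member of this list with the largest fall in H1650. Its 250 bases before the start, from RefSeq on GRCh38.p14, hold the TEAD motif GGAATGT, given in capitals, 95 to 89 bases before the start.
CCN2 (chr6:131951373-131951622, minus strand): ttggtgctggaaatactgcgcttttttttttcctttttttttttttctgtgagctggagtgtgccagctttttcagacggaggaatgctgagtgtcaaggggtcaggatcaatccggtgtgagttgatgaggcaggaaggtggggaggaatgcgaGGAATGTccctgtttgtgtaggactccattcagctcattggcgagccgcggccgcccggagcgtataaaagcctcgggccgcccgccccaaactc
These letters, searched on both strands, occur in 2.95% of all promoters in the table, in 1.93% of those of tested genes, in 3.31% of those of genes higher in PC9 and lower in H1650, and in 2 of 16 of those of the list. Since the list names TEAD targets, its share follows from the choice of members.

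**Figure D3:**
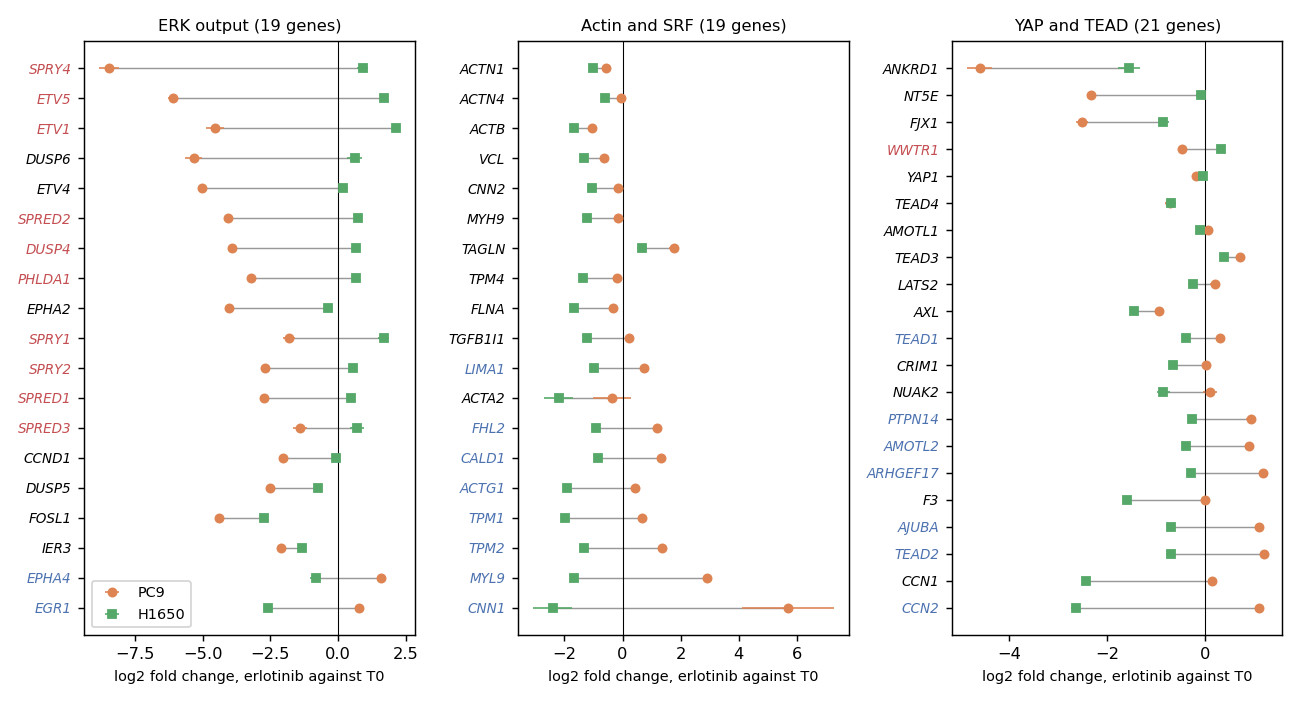
Log2 fold change after erlotinib against T0 of every tested gene in 3 lists, in PC9 (orange circles) and H1650 (green squares), with standard errors as horizontal bars. Gene names in red fell in PC9 and rose in H1650, and names in blue rose in PC9 and fell in H1650. The H1650 squares of 18 of the 19 actin and SRF genes lie below 0.

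Some genes in a list of TGF-β and BMP signalling also turned in opposite directions. Of 17 tested, 8 rose and 3 fell in PC9, and 1 rose and 9 fell in H1650. In this list, 6 genes were higher in PC9 and lower in H1650, against 2.43% of all tested genes. The term was called below 0 for 8 and above 0 for 2. TGFB2, a TGF-β ligand, went from 48.3 and 49.3 to 186 and 196 normalized CPM in PC9 and from 31.5 and 30.6 to 22.03 and 19.5 in H1650, with a term of -2.55 ± 0.13 (adjusted p = 4.44e-15). ID4, a dominant-negative helix-loop-helix factor, went from 13.4 and 14.1 to 78.0 and 68.4 normalized CPM in PC9 and from 42.2 and 35.8 to 29.1 and 25.5 in H1650 (term -2.93 ± 0.15). SKIL, a corepressor of SMAD proteins, rose by 1.26 in PC9 and fell by 0.53 in H1650 on the log2 scale. The opposite calls of BAMBI and ID1 held in 5 and 9 of the 15 alternative settings.

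In the list of EMT and matrix genes, 36 were tested, and 9 rose and 18 fell in PC9 while 1 rose and 24 fell in H1650. MMP14, a membrane-bound metalloprotease, and FN1, fibronectin, were among the genes higher in PC9 and lower in H1650. MMP14 went from 29.7 and 27.8 to 103 and 98.5 normalized CPM in PC9 and from 32.3 and 30.3 to 22.5 and 20.9 in H1650. COL4A1, COL4A2, COL5A1 and LOXL2, which encode collagens and a lysyl oxidase, also rose in PC9 and fell in H1650, with 5 to 38 reads per PC9 library for COL4A2. VIM, the intermediate filament vimentin, fell in both lines (-2.87 and -2.20).

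The only list gene of this group that fell in PC9 and rose in H1650 was TGM2 (ENSG00000198959, chr20:38127387-38166578, minus strand), which encodes transglutaminase 2. It stood at 1647 and 1708 normalized CPM in PC9 at T0, 17.2 and 16.6 in PC9 after erlotinib, 367 and 367 in H1650 at T0, and 527 and 514 in H1650 after erlotinib. It fell by 6.63 on the log2 scale in PC9 and rose by 0.50 in H1650, with a term of 7.14 ± 0.11 (adjusted p = 6.42e-27). An exon of TGM2 overlaps RPRD1B on the other strand.

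The named rule gave 10 genes in each opposite class, those with the largest smaller change and a mean of at least 5 normalized CPM in each line. Besides MYL9 and TPM2, the genes higher in PC9 and lower in H1650 were AL590004.3, GASK1B, FAT4, KRT16, PRR16, IGFBP3, GBP1 and MGP. IGFBP3, which binds and carries insulin-like growth factors, was the most abundant, with 1031 and 1038 normalized CPM in PC9 at T0, 2763 and 2731 in PC9 after erlotinib, 1487 and 1398 in H1650 at T0, and 423 and 405 in H1650 after erlotinib. At T0 the lines differed by 0.48 on the log2 scale (H1650 minus PC9), and after erlotinib by -2.73. Its changes were 1.41 ± 0.07 and -1.80 ± 0.07, with a term of -3.21 ± 0.10 (adjusted p = 2.11e-19).

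KRT16, a keratin of stressed and proliferating epithelia, went from 17.6 and 17.4 to 101 and 93.5 normalized CPM in PC9 and from 176 and 171 to 51.0 and 56.1 in H1650, so that the line with the higher level changed over. Its term was -4.17 ± 0.12 (adjusted p = 1.22e-19), and 6 pseudogenes are named after it. FAT4, an atypical cadherin, went from 10.3 and 11.7 to 45.8 and 53.8 normalized CPM in PC9 and from 36.2 and 28.9 to 6.71 and 10.1 in H1650 (term -4.13 ± 0.20), again with the order of the lines turned. GASK1B, a Golgi-associated protein, went from 5.34 and 6.07 to 38.5 and 42.3 normalized CPM in PC9 and from 66.3 and 66.7 to 14.5 and 18.2 in H1650 (term -4.84 ± 0.16). FAM198B-AS1, an antisense gene that shares exonic sequence with it, was counted separately and was also higher in PC9 and lower in H1650 (1.98 and -1.47). The uncharacterized gene AL590004.3 had the largest rise in PC9 of the 10, from 1.16 and 0.790 to 34.7 and 41.8 normalized CPM, and fell in H1650 from 11.2 and 9.68 to 1.24 and 2.28. GBP1, an interferon-inducible GTPase, went from 4.69 and 4.20 to 14.5 and 14.9 normalized CPM in PC9 and from 57.5 and 57.3 to 21.9 and 22.6 in H1650 (term -3.09 ± 0.18). MGP, the matrix Gla protein, went from 17.8 and 20.9 to 45.2 and 52.4 normalized CPM in PC9 and from 154 and 164 to 63.8 and 69.3 in H1650, and PRR16, a proline-rich protein, went from 2.32 and 2.81 to 11.6 and 14.4 normalized CPM in PC9 and from 16.2 and 16.1 to 5.47 and 6.29 in H1650. In each of these genes both erlotinib libraries lay above both T0 libraries in PC9 and below them in H1650. An exon of MGP overlaps C12orf60 on the other strand.

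Besides ETV5 and SPRY1, the genes named as lower in PC9 and higher in H1650 were PAQR5, UNC5A, PDE4D, B3GNT3, PODXL, TBC1D4, MREG and PLEKHG5. PODXL, a sialomucin of the cell surface, was measured at 413 and 431 normalized CPM in PC9 at T0, 78.8 and 79.1 in PC9 after erlotinib, 24.3 and 22.6 in H1650 at T0, and 44.7 and 47.9 in H1650 after erlotinib. It fell by 2.42 on the log2 scale in PC9 and rose by 0.98 in H1650, and PC9 was still the higher line (term 3.40 ± 0.11, adjusted p = 3.4e-19). B3GNT3, a glycosyltransferase, went from 152 and 153 to 42.8 and 41.9 normalized CPM in PC9 and from 51.5 and 46.0 to 110.2 and 105 in H1650, so that the line with the higher level changed over. PDE4D, a cAMP phosphodiesterase, did not differ between the lines at T0 past the threshold (adjusted p = 0.838). After erlotinib it stood at 2.15 and 3.51 in PC9 and 24.4 and 28.4 in H1650, a term of 3.16 ± 0.24.

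TBC1D4, a RAB GTPase-activating protein that is a substrate of AKT, fell in PC9 from 48.1 and 48.8 to 21.7 and 25.3 normalized CPM and rose in H1650 from 11.8 and 10.7 to 20.4 and 23.98. After erlotinib the lines did not differ past the threshold (adjusted p = 0.521). PLEKHG5, an exchange factor for RHOA, went from 41.6 and 36.5 to 17.1 and 16.6 normalized CPM in PC9 and from 23.6 and 22.5 to 47.0 and 41.6 in H1650 (term 2.15 ± 0.15). UNC5A, a netrin receptor, went from 8.82 and 8.29 to 2.64 and 2.58 normalized CPM in PC9 and from 5.88 and 5.05 to 13.1 and 13.5 in H1650 (term 2.999 ± 0.26). In both genes PC9 was the higher line at T0 and H1650 after erlotinib. PAQR5, a membrane progestin receptor, went from 12.3 and 12.5 to 2.82 and 2.73 normalized CPM in PC9 and from 2.94 and 3.43 to 8.20 and 7.68 in H1650 (term 3.47 ± 0.28). MREG, which acts in melanosome transport, went from 43.7 and 49.1 to 22.9 and 22.1 normalized CPM in PC9 and from 13.9 and 14.2 to 27.0 and 27.6 in H1650 (term 2.00 ± 0.15). Exons of PAQR5, UNC5A, PDE4D, MREG and PLEKHG5 overlap other annotated genes, so part of their counts could belong to those genes.

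Nearly all genes in a list of interferon-stimulated genes rose in H1650. Of 30 tested, 28 rose and 0 fell there, while 17 rose and 4 fell in PC9. GBP1, described above and not in this list, fell in H1650 and rose in PC9. Among the list genes, OAS3, OASL and USP18 fell in PC9 and rose in H1650. OAS3, an antiviral oligoadenylate synthetase, had 64.0 and 67.4 normalized CPM in PC9 at T0, 12.1 and 13.4 in PC9 after erlotinib, 339 and 287 in H1650 at T0, and 518 and 547 in H1650 after erlotinib. The 4 PC9 values lay below the 4 H1650 values, and the gap widened after erlotinib, with a term of 3.13 ± 0.12 (adjusted p = 1.3e-17). Its neighbour OAS1 was not called in PC9 (0.23 ± 0.13) and rose in H1650 from 52.4 and 44.7 to 179 and 174 (term 1.63 ± 0.16). IFI35 rose only in H1650 past the threshold (1.77 ± 0.10, against 0.25 ± 0.12 in PC9). STAT2 and IRF1 rose in both lines and rose more in PC9 (terms -1.26 and -1.06). Among antigen presentation genes, 14 of 20 rose in each line, and the term was below 0 for 8 and above 0 for 2. PSMB9 and HLA-B rose further in PC9 (terms -1.21 and -1.06), and TAP2 fell in PC9 (term 0.90).

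Cell cycle genes gave large terms without moving in opposite directions. All 30 tested DNA replication genes fell in PC9, with a median of -3.46, while in H1650 18 of them fell, with a median of -0.31. The term was above 0 for all 30 (median 3.11). MCM10, a replication initiation factor, went from 60.04 and 65.8 to 1.03 and 1.48 normalized CPM in PC9 and from 62.0 and 64.6 to 45.2 and 43.8 in H1650, and E2F1 went from 88.9 and 86.8 to 3.49 and 4.37 normalized CPM in PC9 and from 280.3 and 247 to 277 and 249 in H1650, with terms of 5.11 ± 0.18 and 4.47 ± 0.16. All 27 mitosis genes fell in PC9 and 26 of them fell in H1650, with medians of -3.11 and -0.66. CDK1, the mitotic kinase, went from 264 and 274 to 19.7 and 21.8 normalized CPM in PC9 and from 207 and 212 to 123 and 130.2 in H1650. E2F2, MYBL2 and MAD2L1 had terms of 4.44, 3.27 and 2.86. Of 25 ribosome biogenesis genes, 24 fell in PC9 and 21 in H1650, and the median term was 0.61, with the highest terms of the list in the nucleolar genes NOP58 (1.36), NOP56 (1.31) and NOP16 (1.24).

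Outside the opposite classes, the highest terms among genes of at least 5 normalized CPM in each line belonged to MALL, CDCA7 and HAS3. MALL, a MAL-family raft protein, fell in PC9 from 22.6 and 20.7 to 0.314 and 0.0781 normalized CPM and in H1650 from 43.0 and 35.2 to 25.1 and 23.6 (term 6.12 ± 0.33). HAS3, a hyaluronan synthase, fell in PC9 from 20.3 and 18.8 to 0.358 and 0.351 and in H1650 from 108 and 105 to 78.9 and 71.1. The PC9 libraries after erlotinib held only 7 and 2 reads of MALL and 8 and 9 reads of HAS3. CDCA7, a MYC and E2F target, fell in PC9 and was not called in H1650 (adjusted p = 0.0941). The lowest terms belonged to VTCN1, NUPR1 and TP53INP1, which rose in both lines. VTCN1, the checkpoint ligand B7-H4, went from 0.151 and 0.444 to 46.3 and 53.2 normalized CPM in PC9 and from 30.0 and 29.8 to 51.8 and 51.2 in H1650. In PC9 at T0 it was near the level that 3 reads give. NUPR1, a stress-response chromatin protein, had 0 and 0.197 normalized CPM in PC9 at T0, and 56.2 and 57.5 after erlotinib, so its fold change in PC9 rests on few reads. TP53INP1, a p53-induced regulator of autophagy and death, had a term of -5.45 ± 0.29, which also rests on few reads, with 7 and 5 in PC9 at T0.

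Of 14 tested BCL2 family genes, 6 rose and 6 fell in PC9, while 4 rose and 0 fell in H1650. Over all tested genes, 32.7% rose and 29.1% fell in PC9, and 18% rose and 18.5% fell in H1650. The terms of the list ran from -4.63 to 1.82, the latter in a gene not named here. The 4 that rose in H1650 (BCL2L11, BBC3, BMF and HRK, all encoding pro-apoptotic BH3-only proteins) also rose in PC9, and each rose further in PC9. BCL2L11, which encodes BIM, went from 18.9 and 19.1 to 61.7 and 59.5 normalized CPM in PC9 and from 42.6 and 48.3 to 67.1 and 69.9 in H1650 (term -1.08 ± 0.12, adjusted p = 3.18e-08), so the lines were closer after erlotinib than before. BMF went from 1.76 and 1.09 to 86.9 and 94.1 normalized CPM in PC9 and from 28.3 and 30.8 to 72.6 and 78.6 in H1650 (term -4.63 ± 0.18). BCL2L1, which encodes the pro-survival protein BCL-XL, fell in PC9 from 160.2 and 169.7 to 54.0 and 58.7 and was at 134 and 133 and then 126 and 131 in H1650 (term 1.49 ± 0.11). An antisense gene, ABALON, shares exonic sequence with BCL2L1. MCL1 was called in neither line (log2 fold change -0.08 ± 0.07 in PC9 and -0.17 ± 0.07 in H1650).

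None of the 20 tested PI3K pathway genes moved in opposite directions, a count near the background, since 1.97% of all tested genes were in one opposite class and 2.43% in the other. PIK3IP1, a negative regulator of PI3K, had a far larger term than the rest: it rose in PC9 from 1.01 and 0.888 to 58.7 and 58.2 normalized CPM and in H1650 from 1.73 and 1.89 to 2.58 and 2.56 (term -5.44 ± 0.28, adjusted p = 4.47e-15). All H1650 values of PIK3IP1 were under the limit of 5 normalized CPM used for named genes. Among members whose mean reached that limit in each line, PHLPP2, PIK3CD and PIK3R3 had the largest called terms (0.84, -0.82 and 0.76). In the list of 20, the term was called above 0 for 5 genes and below 0 for 7, and ran from -5.44 to 2.60. Of all tested genes, 40.8% were called for the term. Of 22 FOXO and quiescence genes, 16 rose in PC9 and 15 in H1650, and the term was below 0 for 15. KLHL24 and CCNG2 rose in both lines and rose further in PC9 (terms -2.62 and -1.46), and PINK1, the mitophagy kinase, had a term of -1.72. TRIB2, a pseudokinase that represses FOXO, instead fell in PC9 and rose in H1650, going from 29.7 and 27.6 to 0.941 and 0.781 normalized CPM in PC9 and from 11.9 and 12.5 to 17.9 and 18.9 in H1650 and a term of 5.65 ± 0.22 (adjusted p = 8.44e-18).

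EGFR transcript fell in both lines, from 1104 and 1225 to 638 and 710.4 normalized CPM in PC9 and from 580.3 and 578 to 435 and 481 in H1650 (term 0.45 ± 0.11, adjusted p = 0.00102). Of the ligands, EGF was at 11.5 and 10.7 and then 10.4 and 11.5 in PC9, and fell in H1650 from 10.1 and 12.2 to 0.568 and 0.466. At T0 the lines did not differ past the threshold (adjusted p = 0.941), and after erlotinib H1650 was the lower line (term -4.41 ± 0.30, adjusted p = 1.06e-12). AREG, amphiregulin, showed the reverse, with a fall in PC9 from 10.1 and 9.53 to 0.537 and 0.468 and values of 2.89 and 3.05 and then 3.04 and 1.72 in H1650. ERRFI1, the feedback inhibitor of EGFR, was in the opposite class: it fell in PC9 by 0.45 and rose in H1650 by 0.21 on the log2 scale. HBEGF fell in both lines and fell further in PC9 (term 1.595), and ERBB2 rose in both and rose further in PC9 (-0.80). Of 14 tested receptors known to bypass EGFR, 7 rose and 4 fell in PC9, 2 rose and 6 fell in H1650, and 2 (MET and FGFR3) were higher in PC9 and lower in H1650. The opposite calls of FGFR3 and ERRFI1 held in 9 and 11 of the 15 alternative settings. TYRO3 fell further in PC9 and MST1R fell in PC9 (terms 1.15 and 1.10). MET, the receptor of hepatocyte growth factor, rose in PC9 (0.33 ± 0.07) and fell in H1650 (-0.74 ± 0.07), going from 619 and 649.9 to 754 and 837 normalized CPM in PC9 and from 369 and 368 to 209.8 and 233 in H1650.

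The ATF4 targets, a programme of amino acid synthesis and transport, rose in both lines at like counts, 27 of 30 in each, and the median term was -0.12. Single genes still differed: the term was called above 0 for 8 and below 0 for 12, and ran from -6.10 to 1.82. Of all tested genes, 40.8% were called for the term. PSPH, phosphoserine phosphatase of the serine pathway, was the only one in opposite directions, going from 115 and 119.6 to 66.4 and 76.2 normalized CPM in PC9 and from 33.2 and 33.8 to 67.5 and 75.7 in H1650 and a term of 1.82 ± 0.13 (adjusted p = 2.06e-12). ASNS, asparagine synthetase, rose in both lines and had a term of -2.34 ± 0.39.

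The remaining lists are set beside the shares over all tested genes. Of these, 32.7% rose in PC9, 18% rose in H1650, 2.43% were higher in PC9 and lower in H1650, and 40.8% were called for the term. Among 20 AHR and NRF2 targets, 17 rose in PC9 and 10 in H1650. HMOX1, heme oxygenase, was higher in PC9 and lower in H1650, going from 14.3 and 15.6 to 28.3 and 28.3 normalized CPM in PC9 and from 90.4 and 86.2 to 40.7 and 44.2 in H1650 (term -1.97 ± 0.15). AHRR and CYP1B1, targets of the aryl hydrocarbon receptor, had terms of -3.42 and -1.43. Among 27 hypoxia and glycolysis genes, 5 were higher in PC9 and lower in H1650, including the vasodilator ADM (term -2.28 ± 0.14) and the prolyl hydroxylase EGLN3 (-1.98 ± 0.13), and 0 were the reverse. Of 18 NF-κB and chemokine genes, 4 were in this class (NFKB2, RELB, BIRC3 and IL6). RELB, a subunit of the noncanonical pathway, went from 9.43 and 8.64 to 20.2 and 17.6 normalized CPM in PC9 and from 14.5 and 10.3 to 4.80 and 5.35 in H1650. TNFAIP3, the NF-κB inhibitor A20, fell in both lines (term 2.35). Of 12 lung lineage and secretory genes, 3 were in the class, led in abundance by CAV1, the caveolar coat protein, going from 1317 and 1353 to 1669 and 1777 normalized CPM in PC9 and from 767 and 745 to 231 and 251 in H1650 (term -2.02 ± 0.10). Among 26 epithelial junction and keratin genes, KRT7, KRT16, KRT19 and TJP1 were in it, and EPCAM was the reverse, going from 537 and 541 to 266 and 288 normalized CPM in PC9 and from 199 and 214 to 237 and 247 in H1650. TJP3 rose in both lines and rose further in PC9 (-1.93), as did MUC1 among the lineage genes (-2.78), while AGER rose only in H1650 past the threshold (1.16). Of 23 cholesterol synthesis genes, 14 rose in PC9 and 4 in H1650, and the terms of SREBF2, the regulator of the pathway, and of the enzyme genes LSS and MSMO1 were -1.45, -1.15 and -1.06. Of 24 lysosome and autophagy genes, 16 rose in PC9 and 13 in H1650, and the term was called below 0 for 10 and above 0 for 4. WIPI1, GABARAPL1 and ULK1 had terms of -2.56, -2.32 and -1.77.

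**Figure D4:**
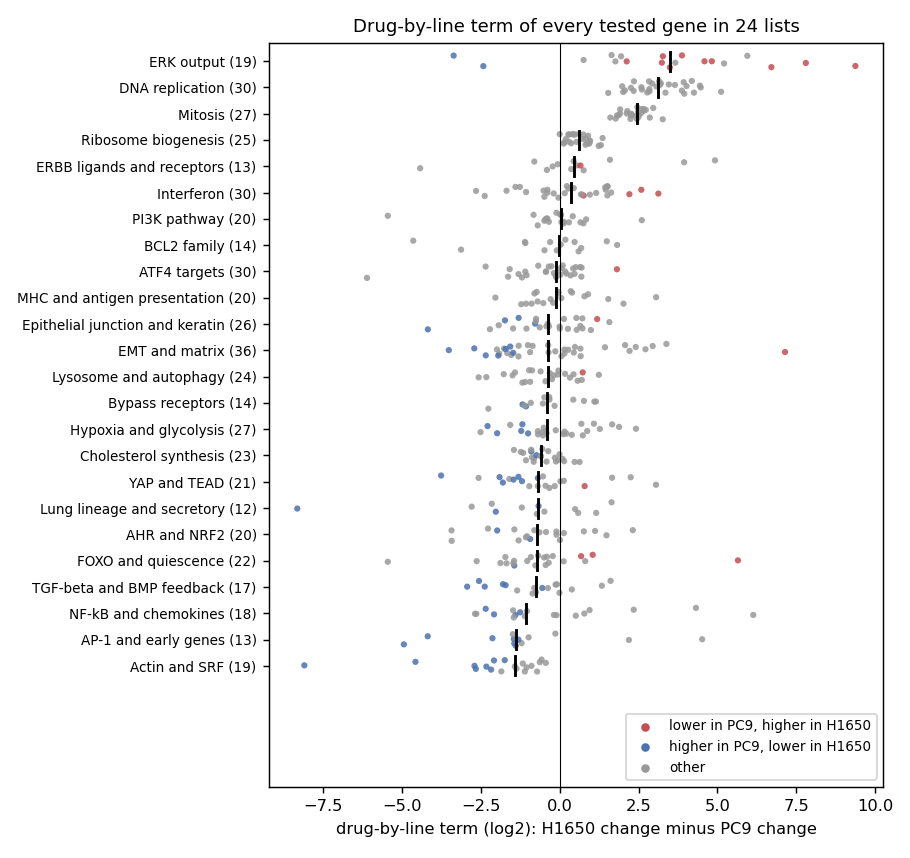
Drug-by-line term (log2 scale, H1650 change minus PC9 change) of every tested gene in 24 lists, with the number of genes in brackets and a black bar at each list's median. Points in red fell in PC9 and rose in H1650, points in blue the reverse, and medians run from 3.49 for ERK output to -1.42 for actin and SRF genes.

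Only 169 genes called in both lines in the same direction changed more in H1650, 92 upward and 77 downward. By the rule for named genes, the highest changes in H1650 were those of ALDH2, RAB26 and RPS6KA2. ALDH2, mitochondrial aldehyde dehydrogenase, went from 16.5 and 17.2 to 32.4 and 33.9 normalized CPM in PC9 and from 1.03 and 1.20 to 13.6 and 12.6 in H1650 (term 2.57 ± 0.23, adjusted p = 2.32e-10). RPS6KA2, which encodes the ERK-activated kinase RSK3, went from 24.2 and 26.8 to 61.0 and 59.7 normalized CPM in PC9 and from 2.01 and 1.77 to 12.2 and 12.3 in H1650, and with osimertinib its log2 fold change was 0.51 in PC9 and 0.72 in H1650. RAB26, a vesicle GTPase, had a term of 0.82 ± 0.21. The lowest were AOX1, GLIPR1 and SPOCD1. AOX1, aldehyde oxidase, went from 17.998 and 20.7 to 11.9 and 13.2 normalized CPM in PC9 and from 14.8 and 15.4 to 1.496 and 1.58 in H1650 (term -2.66 ± 0.23). GLIPR1, a CAP-family glycoprotein, fell in H1650 by 3.26 and in PC9 by 1.27 on the log2 scale. Exons of ALDH2, RPS6KA2, GLIPR1 and SPOCD1 overlap other annotated genes.

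For genes that moved in opposite directions, the lines ended closer together about as often as not. Among the 376 genes lower in PC9 and higher in H1650, PC9 and H1650 stood closer after erlotinib than at T0 for 180 (47.9%). Among the 464 genes higher in PC9 and lower in H1650 they stood closer for 249 (53.7%). Over all tested genes the share was 49.2%. These values share their libraries with the term and are a description.

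For other genes named here, part of the counts could belong to another locus. Exons of HAS3, ERBB2, PHLPP2, PIK3CD, PIK3R3, BMF, BBC3, PINK1, MAD2L1, NOP58, NOP56, NOP16, ASNS, SREBF2, LSS, OAS1, PSMB9, HLA-B, TAP2, TNFAIP3, KRT7, MUC1, AHRR, CYP1B1, WIPI1, GABARAPL1, TGFB2, KRT18, EGFR, BCL2L11, FHL2, DUSP6, PHLDA1, CCND1, VCL, FLNA, CNN2, TPM4, TAGLN, IER3, AMOTL2, AJUBA, PIK3IP1, ARHGEF17, EPHA4, ERRFI1, IL6, IRF1, JUNB, LOXL2, MCL1, PTPN14, TEAD2, VIM, WWTR1, YAP1, MST1R and COL4A2 overlap exons of another annotated gene, and MREG, GBP1, PIK3CD, NOP56, ASNS, PSPH, EGLN3, KRT19, KRT18, FOSL1, CNN2, TPM4, ACTB, DUSP5, CCNG2, YAP1 and FGFR3 have pseudogenes named after them. The part of these overlaps in any value was not tested.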

How the data were processed

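Per the labels, RNA was sequenced from PC9 and H1650 cells in DMSO (T0) or treated for 36 h with erlotinib (10 μM) or with osimertinib (0.1 μM), as 2 replicates of each of 6 groups. The authors deposited raw read counts per gene from featureCounts, made with the DolphinNext pipeline, and the submitters' processing notes name GRCh38 and DESeq2. The aligner, annotation and strand setting are not given in the sources used here.

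From these counts, genes were filtered with filterByExpr in edgeR 4.0.16 (R 4.3.3), libraries were scaled by TMM, and 1 quasi-likelihood model of 6 groups was fitted to the 12 libraries (6 residual degrees of freedom, biological coefficient of variation 0.0656). The drug-by-line term and each line's change were tested by contrasts, with p-values adjusted over 19108 genes (Benjamini-Hochberg) and a threshold of 0.05. A gene was placed in an opposite class if called in both lines, with opposite signs, and for the term. Values are given as fold changes on the log2 scale ± standard error and as normalized CPM of each library. Replicates of a group differed by more than sampling noise (chi-square per gene 4.02 to 7.13), so each was counted as 1 sample. The 8 libraries held 17961765 to 26346187 reads on genes, and 60591 genes were listed, of which 41483 were not tested.

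Named genes were, in each opposite class, the 10 with the largest smaller change and a mean of at least 5 normalized CPM in each line, then the 3 highest and 3 lowest terms outside these classes, the 3 highest and 3 lowest changes among genes that changed more in H1650, up to 3 genes for each of 26 lists (551 genes, 519 tested), and EGFR and BCL2L11. Some genes that this rule names are not reported here. Genes named beyond this rule and the 5 promoters were chosen after their values were seen, and the members and lists were chosen with earlier results of these data known. The procedure was tested on simulated counts of 17893 genes: it recovered 173 of 200 terms of size 1 (log2) and 94 of 100 opposite changes, with 18 false terms. The altered genes averaged at least 5 normalized CPM and were all raised in H1650. The opposite changes were 2-fold in each line and all lower in PC9. All other genes were left unchanged, unlike in these data, so the rates need not hold for the counts given above. Motifs were searched in the 250 bases before the start in 27305 RefSeq promoters, of which 77.3% of those with a GENCODE 29 transcript to compare matched its end. Alternatives were DESeq2 1.42.0, other scalings, filters and thresholds, 8 libraries only, the replicate number as a block, and leaving out each library.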

Additional observations from a re-analysis of the deposited data

Results flagged for a closer look

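The drug-by-line term is itself a test of a difference between 2 lines under the same contrast. In edgeR, 7802 genes in all passed it with an adjusted p under 0.05. For the genes named below, passing it was a condition of the class they were drawn from, so it is not a further check on them. Among the genes named as lower after erlotinib in PC9 and higher in H1650, the term was 7.80 for ETV5, 3.49 for SPRY1, 3.47 for PAQR5, 3.40 for PODXL, 3.16 for PDE4D, 2.999 for UNC5A, 2.995 for B3GNT3, 2.15 for PLEKHG5, 2.02 for TBC1D4 and 2.00 for MREG. Among those named as higher in PC9 and lower in H1650, it was -7.83 for AL590004.3, -4.84 for GASK1B, -4.56 for MYL9, -4.17 for KRT16, -4.13 for FAT4, -3.79 for PRR16, -3.21 for IGFBP3, -3.09 for GBP1, -2.69 for TPM2 and -2.59 for MGP. With 2 libraries a group, no test for a library that stands apart was made.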

How the results depend on the processing

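The count of 7802 genes with a called term went from 6790 to 7247 when 1 library was left out, and the replicate numbers entered as a block gave 8467. The 4025 terms above 0 and 3777 below 0 went from 3529 to 3839 and from 3261 to 3527 without 1 library, the 11812 genes called in PC9 from 10420 to 11952, the 6966 called in H1650 from 5210 to 7101, the 376 genes lower in PC9 and higher in H1650 from 288 to 343, and the 464 of the other class from 341 to 443. Same-numbered replicates of different groups deviated together with r of 0.0623 to 0.317, not above 0.1 for every pair of groups, so the numbers were not taken as pairs. The value under 0.1 was that of PC9 T0 with H1650 T0. Between T0 and erlotinib, r was 0.217 in PC9 and 0.150 in H1650, so the replicates are not shown to be unpaired. The replicate block gave 459 and 578 opposite genes. DESeq2 called 6835 terms and 275 and 410 opposite genes, of which 272 and 392 were shared with edgeR. Upper quartile scaling moved the median term from -0.03 to -0.11 and gave 3541 terms above 0 and 4340 below. A minimum log2 change of 1 left 3617 terms (1783 above 0 and 1834 below), 5882 genes in PC9, 1552 in H1650, and 63 and 66 opposite genes, by its own construction. A threshold of 0.01 left 233 genes lower in PC9 and higher in H1650. Of 84 opposite genes named, 69 kept their class in all settings tested. The others kept it in at least 10 of 15 settings, except FGFR3 and ID1 (9 of 15), KLF6 and BAMBI (5 of 15) and EGR2 (8 of 14). The median term of the PI3K list (0.0349) turned to -0.0455 under upper quartile scaling and -0.00899 with at least 10 reads in every library, and ran from -0.0447 to 0.0964 without 1 library. That of the BCL2 family (-0.0239) ran from -0.136 to 0.0777. That of the other cell type markers (-0.972), which rests on few reads, was 0.321 with no filter and 0.286 in DESeq2, and ran from -1.07 to 0.598. The cause of these shifts was not tested. The precision is limited by 2 libraries a group and, for genes near 3 reads, by counting error.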
